A study of Mus musculus with 19 samples.

Results

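The 10 Toll-like receptor genes *Tlr1* to *Tlr9* and *Tlr13* were examined by RNA sequencing of 19 primary p53/MCA sarcomas. They were taken by symbol from a table of 48795 gene identifiers, of which 18374 were tested between the genotypes. The tumors arose in the gastrocnemius muscle after Adeno-sgp53-Cas9, an adenovirus that carries Cas9 and a guide against *Trp53*, and 300 µg of the carcinogen 3-methylcholanthrene (MCA). All 19 mice received both agents at 6 to 10 weeks of age, had no further treatment and gave 1 tumor library each at about 70 to 150 mm3. The libraries were labelled Rag2-/- (n = 11) or Rag2+/- (n = 8), and the study bred these mice as littermates of both sexes. Rag2-/- mice lack mature T and B cells, because RAG2 is needed to assemble their antigen receptors, and they keep myeloid cells and NK cells. The comparison asks how the RNA of these innate receptors differs between sarcomas that grew with and without T and B cells.

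Toll-like receptors are membrane proteins that bind parts of microbes or of damaged cells and start an inflammatory response, mostly in macrophages, dendritic cells and neutrophils. TLR1, TLR2, TLR4, TLR5 and TLR6 act at the cell surface on lipoproteins, lipopolysaccharide and flagellin. TLR3, TLR7, TLR8, TLR9 and TLR13 sit in endosomes and sense nucleic acids, and the chaperone UNC93B1 brings them there. All but TLR3 signal through the adaptor MYD88, while TLR3 uses TICAM1, which TLR4 shares. The pathways end in NF-kappa B target genes and, for the endosomal receptors and TLR4, in type I interferon, and type I interferon in turn can raise the RNA of some receptors, *Tlr3* among them.

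Each log2 value below is the deposited FPKM after upper-quartile normalization by the authors, plus 0.1 and in log2, so that undetected genes sit at a floor of −3.32. The depth estimated from the low values was 24.8 to 33.7 M fragments on genes (M for mega) in 18 tumors and 5.23 M in the Rag2-/- tumor S41. *Rag2* RNA counted over the whole gene was at −0.34 ± 0.74 (SD, n = 11) in Rag2-/- and −1.31 ± 0.70 (SD, n = 8) in Rag2+/- tumors, which does not show what part of the gene was read and so does not check the labels. *Cd3e*, a part of the T cell receptor complex, stayed at the floor throughout the 11 Rag2-/- tumors, against a mean of 1.47 ± 1.17 (SD, n = 8) in the Rag2+/- group. A pair of tumors stood apart in macrophage genes. Over 10 such genes (*Adgre1*, *Csf1r*, *Cd68*, *Mrc1*, *Fcgr1*, *Mertk*, *C1qa*, *C1qb*, *C1qc* and *Cd163*) the mean log2 value was 7.48 in the Rag2-/- tumor S46 and 4.43 in the Rag2+/- tumor S56, and the other 17 tumors lay between 5.48 and 6.21. The tumors S41, S46, S51 and S56 are absent from the 15 tumors (8 Rag2-/- and 7 Rag2+/-) of the study's figure on this experiment, so results are also given for those 15. In the study's methods, samples with failed quality control or too little RNA or DNA were taken out, without naming them.

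All 10 receptors were above the floor in all 19 tumors. By the mean over the tumors *Tlr13*, at 4.19, and *Tlr2*, at 4.05, had the highest log2 values, and these 2 did not differ beyond the spread of their difference from tumor to tumor. A middle set followed, with *Tlr7* at 3.25, *Tlr8* at 3.16, *Tlr4* at 3.05, *Tlr9* at 2.97, *Tlr3* at 2.80 and *Tlr1* at 2.59, and no neighbors within it were apart by that measure. *Tlr5*, at 0.90, and *Tlr6*, at 0.88, were lowest and not apart from each other. The steps from *Tlr2* down to *Tlr7*, 0.80 ± 0.60 (SD of the difference within tumors, n = 19), and from *Tlr1* down to *Tlr5*, 1.70 ± 0.73 (SD, n = 19), were larger than their spread. *Tlr13* was the highest of the 10 receptors in 11 tumors, *Tlr2* in 7 and *Tlr8* in 1. These values are per length of transcript, so they can be set beside each other. The remaining mouse family members *Tlr11* and *Tlr12*, receptors for a protozoan profilin, had lower means, at −2.004 and −1.34 in Rag2-/- and −1.98 and −0.64 in Rag2+/- tumors, although *Tlr12* reached 0.39 in S52 and 1.21 in S58. In the shallowest case a receptor still rested on an estimated 20 fragments, for *Tlr5* in S56.

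**Figure D1:**
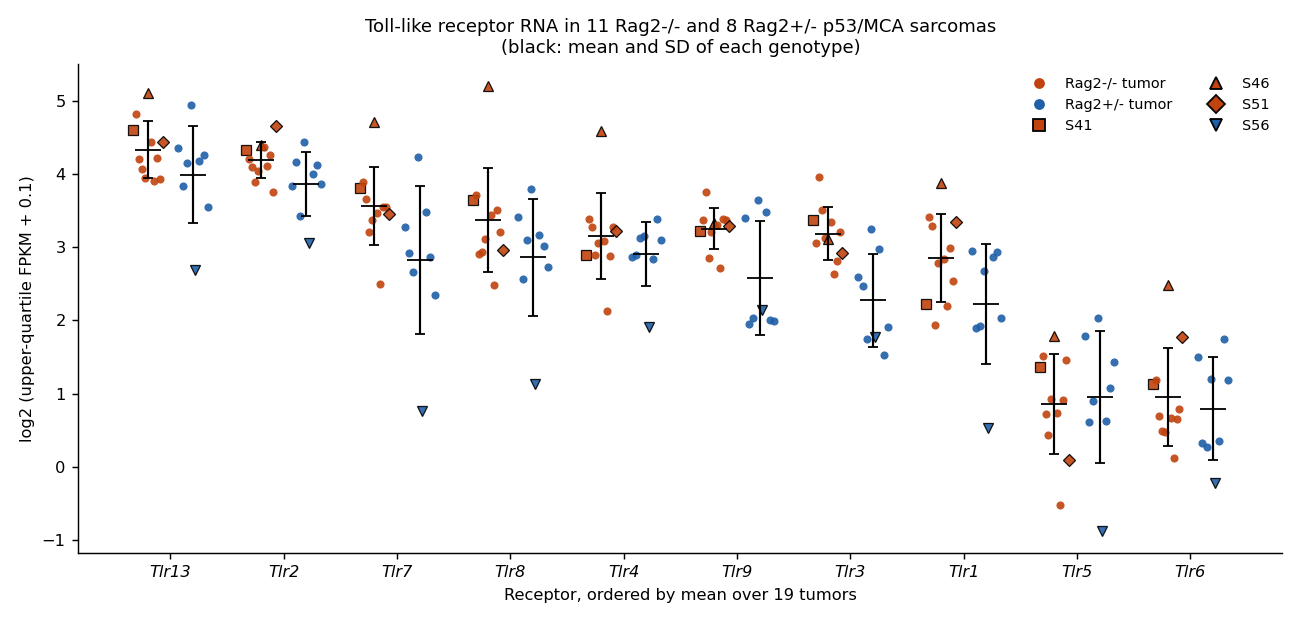
Log2 value of each receptor (y axis) in every tumor, by receptor (x axis, ordered by the mean over 19 tumors), Rag2-/- in orange and Rag2+/- in blue, with black bars for mean and SD; S41, S46, S51 and S56 have their own symbols. The genotypes overlap for all 10 receptors, S56 is the lowest Rag2+/- tumor for 8 of them, and *Tlr9* in Rag2+/- tumors falls into a set near 2.0 and a set near 3.5.

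Of the 10 receptors, 9 had a higher mean log2 value in Rag2-/- than in Rag2+/- tumors, and 56.8% of all 18374 genes tested were higher as well. The median difference of the receptors (Rag2-/- minus Rag2+/-) was 0.43, against 0.073 over all genes tested. In the 15 tumors 7 of 10 receptors were higher (55.8% of all genes), with a median of 0.083 beside 0.066 over all genes. None passed an adjusted p of 0.05 in limma (0 of 10 receptors), where 24 genes or 0.131% of all genes did, each of them lower in Rag2-/- tumors. At an unadjusted p under 0.05 there were 3 of 10 receptors, *Tlr3*, *Tlr7* and *Tlr9*, all higher in Rag2-/- tumors. The shares of all genes were 14.9% in either direction and 6.54% in this one. These receptors are endosomal, but the endosomal *Tlr8* and *Tlr13* had an unadjusted limma p of 0.135 and 0.157. The surface receptors *Tlr1* and *Tlr2* had lower ones, 0.0567 and 0.0545. The groups were without overlap for 0 of 10 receptors and for 0.0762% of all genes. Since the tissue was sequenced in bulk, more receptor-bearing cells and more RNA per cell cannot be told apart.

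*Tlr3*, the sensor of double-stranded RNA, had the lowest p of the receptors. Its log2 value ran from 2.63 over a median of 3.13 to 3.96 in the 11 Rag2-/- tumors and from 1.52 over 2.19 to 3.25 in the 8 Rag2+/- tumors. All 11 Rag2-/- tumors lay above the Rag2+/- median, and 6 of 8 Rag2+/- tumors lay below the lowest Rag2-/- tumor, the exceptions being S55 and S58. The mean difference was 0.91 (SE 0.23), a factor of 1.88 on this scale, with adjusted p = 0.229 in limma and p = 0.00102 in a two-sided exact permutation test over the 75582 relabelings of 11 and 8 tumors. By the p of limma it ranked 55 of 18374 genes and 14 of the 10428 higher in Rag2-/- tumors. Restricted to the 15 tumors, it was 0.86 with p = 0.00886 (exact permutation, two-sided), where *Tlr3* was the 1 receptor of 10 with an unadjusted limma p under 0.05 (19.6% of all genes) and 0 of 10 passed an adjusted p (0.289% of all genes). Leaving out single tumors moved it between 0.80 and 1.05, with an unadjusted p of at most 0.00207.

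*Tlr9*, the sensor of unmethylated CpG DNA, had an SD of 0.28 among Rag2-/- tumors and of 0.77 among Rag2+/- tumors. In the former it ran from 2.72 over a median of 3.30 to 3.76. Among Rag2+/- tumors it was at 3.40 in S52, 3.65 in S55 and 3.48 in S58, inside the Rag2-/- range. It was at 1.95 in S53, 2.03 in S54, 2.14 in S56, 1.9996 in S59 and 1.99 in S60, all below the lowest Rag2-/- tumor. No tumor of either genotype lay between 2.14 and 2.72. The mean difference was 0.68 (SE 0.24), with adjusted p = 0.327 in limma and p = 0.0172 in a two-sided exact permutation test on 11 and 8 tumors. In the 15 tumors it was 0.60 (two-sided exact permutation test, p = 0.0727).

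*Tlr7*, *Tlr8* and *Tlr13* are the X-linked receptors for RNA, TLR7 for single-stranded RNA and TLR13 for bacterial ribosomal RNA. *Tlr7* ran from 2.497 over 3.54 to 4.71 in Rag2-/- tumors and from 0.76 over 2.90 to 4.23 in Rag2+/- tumors, which overlapped over most of their ranges. Its difference was 0.74 (SE 0.34), with adjusted p = 0.329 in limma and p = 0.0430 in a two-sided exact permutation test on 11 and 8 tumors. It fell to 0.45 without S56 and to 0.28 in the 15 tumors (two-sided exact permutation test, p = 0.308). *Tlr8* ran from 2.49 over 3.21 to 5.21 in Rag2-/- and from 1.13 over 3.05 to 3.80 in Rag2+/- tumors, with the highest value in S46 and the lowest in S56. *Tlr13* ran from 3.91 over 4.22 to 5.10 and from 2.70 over 4.16 to 4.95, again with S46 highest and S56 lowest. The genotype differences, 0.51 (SE 0.33) for *Tlr8* and 0.34 (SE 0.23) for *Tlr13*, were 0.05 and 0.01 in the 15 tumors.

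Among the surface receptors *Tlr2*, which pairs with TLR1 or TLR6 to bind bacterial lipoproteins, ran from 3.76 over 4.20 to 4.66 in Rag2-/- tumors and from 3.06 over 3.93 to 4.44 in Rag2+/- tumors. Its partner *Tlr1* ran from 1.94 over 2.84 to 3.87 and from 0.52 over 2.35 to 2.96. Both ranges overlapped widely, with 5 of 11 Rag2-/- tumors above the highest Rag2+/- tumor for *Tlr1* and 1 of 11 for *Tlr2*. The differences were 0.63 (SE 0.31) for *Tlr1* and 0.33 (SE 0.16) for *Tlr2*, with adjusted p of 0.342 and 0.340 in limma. In the 15 tumors they were 0.28 and 0.11. *Tlr4*, the lipopolysaccharide receptor, ran from 2.12 over 3.09 to 4.59 in Rag2-/- and from 1.91 over 2.99 to 3.39 in Rag2+/- tumors. The flagellin receptor *Tlr5* ran from −0.52 over 0.91 to 1.79 and from −0.87 over 0.99 to 2.03, and *Tlr6* from 0.13 over 0.69 to 2.49 and from −0.22 over 0.77 to 1.75. Genotype differences of 0.25 (SE 0.24) for *Tlr4*, −0.09 (SE 0.36) for *Tlr5* and 0.16 (SE 0.32) for *Tlr6* were of about the size of their standard errors or smaller. In the 15 tumors *Tlr4* and *Tlr6* changed sign, to −0.05 and −0.31.

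*Tlr1* and *Tlr6* lie next to each other on the minus strand of chromosome 5 (GRCm38, positions 64924679 to 64933563 and 64952031 to 64960097), and their coding sequences share a stretch of 229 identical bases. Of all 150-base windows, the length of 1 read, 25.36% of the *Tlr1* and 24.99% of the *Tlr6* coding sequence matched the other gene within 2 mismatches, so values of these 2 genes are uncertain where the authors' counting could split such reads. Every other pair among the 10 receptors shared at most 16 bases in a row and had 0 matching windows. The 289-base windows with the shared stretch, coding sequence of exon 4 of 4 of *Tlr1* (chr5:64925507-64925795) and of exon 2 of 2 of *Tlr6* (chr5:64953798-64954086), are shown to make this likeness visible, 5′ to 3′ along the gene from GRCm38, with capitals at the 2 positions where they differ:
Tlr1: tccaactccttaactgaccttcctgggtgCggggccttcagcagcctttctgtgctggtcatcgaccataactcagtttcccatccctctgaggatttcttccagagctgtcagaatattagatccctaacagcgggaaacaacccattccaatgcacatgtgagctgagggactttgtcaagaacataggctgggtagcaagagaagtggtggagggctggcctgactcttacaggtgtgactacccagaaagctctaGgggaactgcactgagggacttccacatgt
Tlr6: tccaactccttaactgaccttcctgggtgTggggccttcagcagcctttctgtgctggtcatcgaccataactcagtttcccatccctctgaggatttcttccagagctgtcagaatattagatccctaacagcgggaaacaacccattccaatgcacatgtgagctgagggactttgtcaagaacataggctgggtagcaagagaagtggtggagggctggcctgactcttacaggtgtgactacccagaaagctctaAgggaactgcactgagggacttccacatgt

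To see how the genotype differences stood beside other cell types and programs, they were fitted again with list means as covariates. The macrophage list was at 5.97 ± 0.55 (SD, n = 11) in Rag2-/- and 5.66 ± 0.54 (SD, n = 8) in Rag2+/- tumors, with 1 of its 10 genes, *Fcgr1*, past an unadjusted p of 0.05 and 0 past an adjusted one. Summed, its genes ran from 10.2 to 11.8 in Rag2-/- and from 9.19 to 10.8 in Rag2+/- tumors on the log2 scale. With this mean as a covariate the difference was 0.87 for *Tlr3* and 0.59 for *Tlr9*, but 0.39 for *Tlr7*, 0.12 for *Tlr8*, −0.02 for *Tlr4* and −0.16 for *Tlr6*. The type I interferon list of 14 genes, chosen as a covariate after seeing the data, was at 5.26 ± 0.61 (SD, n = 11) and 4.30 ± 0.78 (SD, n = 8). With it the difference of *Tlr3* was 0.39 (adjusted p = 0.985 and unadjusted p = 0.0688 in limma) and that of *Tlr9* 0.19, and 0 of 10 receptors had an unadjusted p under 0.05, against 3.4% of all genes. Of the 10 skeletal muscle genes 8 were lower in Rag2-/- tumors at an unadjusted p under 0.05 (8.34% of all genes) and 0 at an adjusted one in limma. Their list mean was 10.6 ± 2.46 (SD, n = 8) in Rag2+/- and 8.36 ± 2.08 (SD, n = 11) in Rag2-/- tumors, and summed they ran from 10.8 to 17.2 and from 8.30 to 16.6. With muscle as a covariate *Tlr3* differed by 0.70, *Tlr9* by 0.62 and *Tlr7* by 0.52. The 7 NK cell genes had a median difference of 1.04, with 6 past an unadjusted p of 0.05 (14.9% of all genes) and none at an adjusted p (0 of 7 in limma), and their part in the receptor values was not tested. Both sexes were used, and with *Xist*, an RNA of female cells, as a covariate *Tlr3* differed by 0.81, *Tlr9* by 0.69 and *Tlr7* by 0.72. The unadjusted p of *Tlr7* in limma was 0.0893 with the macrophage, 0.169 with the muscle and 0.0590 with the *Xist* covariate, above 0.05 in each.

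Other cell types that could carry the receptors were read from marker lists, whose part in the receptor values was not tested. Over all genes 6.54% were higher and 8.34% lower at an unadjusted p under 0.05, 14.9% in all. Plasmacytoid dendritic cells and B cells are known for *Tlr7* and *Tlr9*. Of 7 plasmacytoid dendritic cell genes 1 was higher and 2 were lower in Rag2-/- tumors at an unadjusted p under 0.05 (list median −0.42, summed levels 8.02 to 9.999 in Rag2-/- and 8.12 to 10.8 in Rag2+/- tumors). Those were *Bst2*, which interferon also induces, and *Klk1* and *Cox6a2*, the last of which muscle also uses. The summed levels come mostly from *Bst2*, *Cox6a2* and *Tcf4*. *Siglech* was low, at −0.40 in Rag2-/- and −0.49 in Rag2+/- tumors, and differed by 0.09 (SE 0.43). *Ccr9* was at −1.85 and −1.43 and differed by −0.42 (SE 0.41). Of the B cell list 5 of 8 genes were tested, 2 with a higher and 3 with a lower mean in Rag2-/- tumors, with a list median of −0.17. *Cd79a*, a part of the B cell receptor, was lower past an adjusted p of 0.05, *Ms4a1* differed by −0.83 (SE 0.27), and *Pax5* and *Cd79b* had differences of 0.61 (SE 0.45) and 0.10 (SE 0.36). *Fcer2a*, not tested, was at the floor in all Rag2-/- tumors. The T cell list had a median of −4.05, with 6 of 8 genes lower past an adjusted p of 0.05 (0.131% of all genes). Neutrophil genes had a median of 0.87 and conventional dendritic cell genes one of −0.31, with 0 of 10 and 0 of 7 genes past an unadjusted p of 0.05. The medians were −0.32 for endothelial, 0.33 for fibroblast and mesenchymal and −0.85 for epithelial genes, with 1 gene past an unadjusted p of 0.05 in each.

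**Figure D2:**
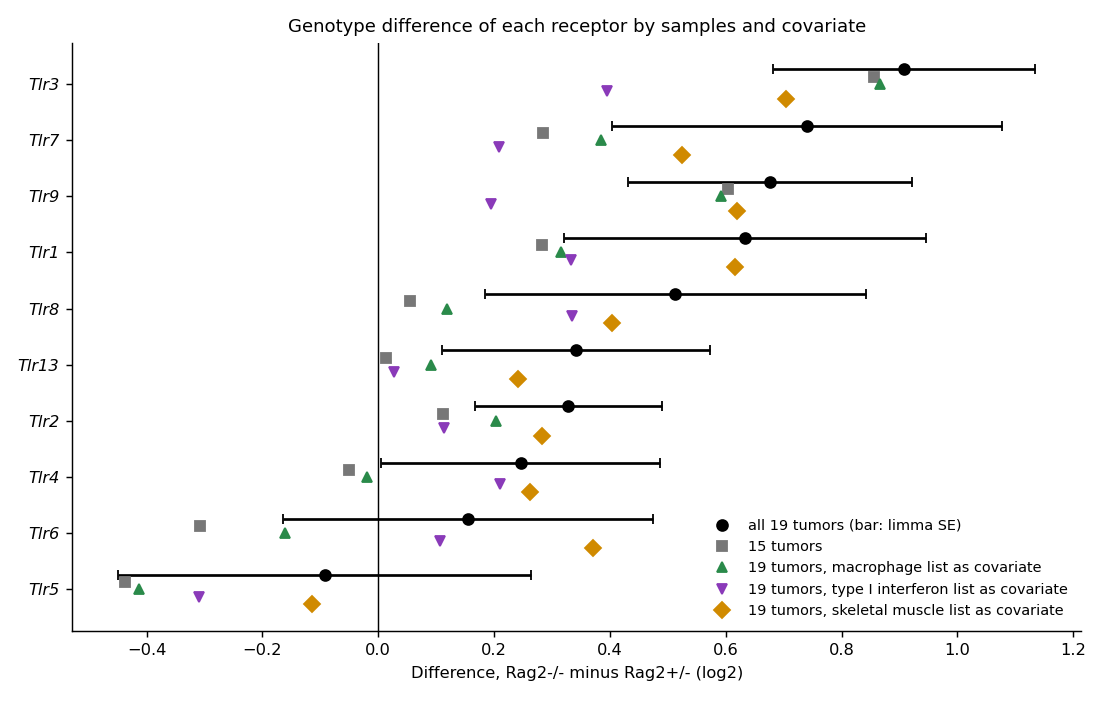
Difference in log2 value between Rag2-/- and Rag2+/- tumors (x axis) for each receptor (y axis) in all 19 tumors (black, with the limma standard error), in the 15 tumors (grey) and in 19 tumors with the macrophage (green), type I interferon (purple) or skeletal muscle (yellow) list mean as a covariate. *Tlr3* and *Tlr9* keep 0.86 and 0.60 in the 15 tumors and 0.39 and 0.19 with the interferon mean, while *Tlr4* and *Tlr6* fall on both sides of 0.

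Across the tumors most receptors moved with the macrophage genes. *Tlr9* is left out of the pooled correlations because its values form separate sets. Of the other 9 receptors, 8 correlated with the macrophage mean at an adjusted p under 0.05 over 9 relations, with or without S46 and S56, the tumors farthest from the median (permutation tests with 100000 draws). *Tlr8* had the highest Pearson r, 0.94 (Spearman rho 0.77, permutation p = 3e-05 and 1.7e-04, adjusted 6.75e-05 and 8.5e-04), and r was 0.70 without S46 and S56. For *Tlr13* r was 0.87 (rho 0.89, permutation p = 1e-05 for both, the lowest value these draws allow), and 0.77 without those tumors. Within genotypes *Tlr8* gave r = 0.95 in Rag2-/- and 0.91 in Rag2+/- tumors, and *Tlr13* 0.87 and 0.90. The other surface and X-linked receptors ranged from r = 0.68 for *Tlr2* and *Tlr5* to 0.89 for *Tlr4*, and from 0.51 to 0.63 without S46 and S56. Within genotypes these 6 receptors ran from r = 0.48 for *Tlr2* to 0.87 for *Tlr7* in Rag2-/- and from 0.79 for *Tlr6* to 0.94 for *Tlr4* in Rag2+/- tumors. The values within Rag2-/- tumors include S46 and those within Rag2+/- tumors S56, and no r within a genotype was computed without them. *Tlr3* was the exception, with r = 0.30 (rho 0.18, permutation p = 0.219 and 0.468), and 0.03 without S46 and S56.

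*Tlr3* moved instead with the type I interferon genes (among them *Isg15*, *Ifit1*, *Ifit3*, *Mx1*, *Oas1a*, *Oasl2* and *Rsad2*), a relation examined after seeing the data. Over 19 tumors r was 0.84 (rho 0.84, permutation p = 1e-05 and 2e-05, adjusted over 9 receptors 9e-05 and 2e-04), and 0.78 without S56 and S60, the tumors farthest from the median. Within Rag2+/- tumors r was 0.92 (exact permutation p = 0.00203, n = 8) and within Rag2-/- tumors 0.51 (permutation p = 0.108, n = 11). The Rag2-/- tumor S51 had the highest interferon mean, 6.26, and a *Tlr3* value of 2.92, below the Rag2-/- median. *Tlr7*, *Tlr2* and *Tlr13* also passed an adjusted p of 0.05 (r = 0.62, 0.59 and 0.52), but 1 receptor of 9, *Tlr3*, passed without S56 and S60. Within Rag2-/- tumors r was −0.13 for *Tlr7*, 0.20 for *Tlr2* and −0.11 for *Tlr13*. Within the 8 Rag2+/- tumors it was 0.88 for *Tlr7* (exact permutation p = 0.000595), 0.62 for *Tlr2* (p = 0.0966) and 0.80 for *Tlr13* (p = 0.0124), and *Tlr8* had 0.77 (p = 0.0125), so that in this genotype *Tlr3* was not alone in moving with the interferon genes. The values within Rag2+/- tumors include S56 and S60, and none was computed without them. The interferon and macrophage means themselves had r = 0.19 (rho 0.18, permutation p = 0.438 and 0.467).

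*Tlr9* was set beside the same list mean. In the 5 tumors with *Tlr9* at 1.95 to 2.14, all Rag2+/-, the interferon mean ran from 3.27 to 4.26 and *Tlr3* from 1.52 to 2.47. In the other 14 tumors the interferon mean ran from 4.30 to 6.26 and *Tlr3* from 2.60 to 3.96, without overlap in either measure. The 3 Rag2+/- tumors among these had interferon means of 4.66 in S52, 5.45 in S55 and 5.25 in S58. The gap in the interferon mean was small, since the Rag2-/- tumor S46 at 4.30 lay next to the Rag2+/- tumor S53 at 4.26, while *Tlr9* was at 3.33 and 1.95 and *Tlr3* at 3.11 and 2.47 in these tumors. These sets were drawn from the *Tlr9* values themselves and are a description, with no test.

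**Figure D3:**
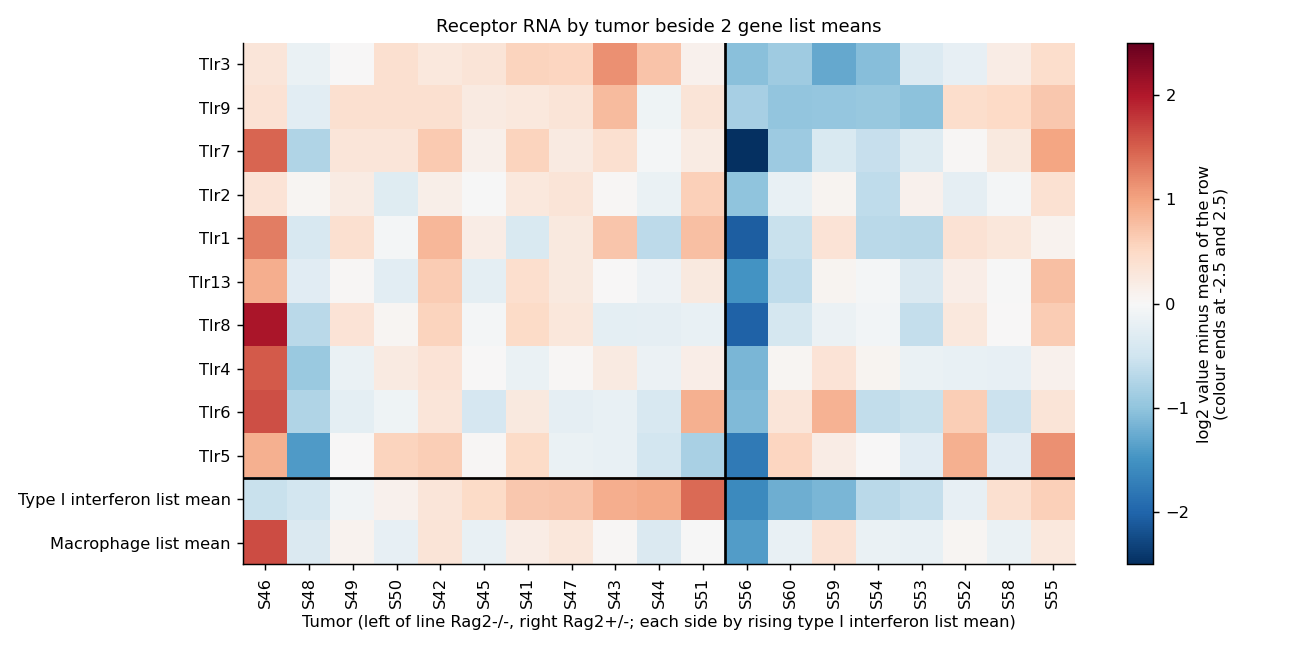
Log2 value of each receptor (rows) in each tumor (columns, Rag2-/- left and Rag2+/- right of the line, each ordered by the type I interferon mean) minus the mean of its row, in color, with the 2 list means below. S46 is high and S56 low across the surface and X-linked receptors and the macrophage mean, and *Tlr3*, *Tlr7*, *Tlr8* and *Tlr9* are below their row means in the 5 Rag2+/- tumors with the lowest interferon means.

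**Figure D4:**
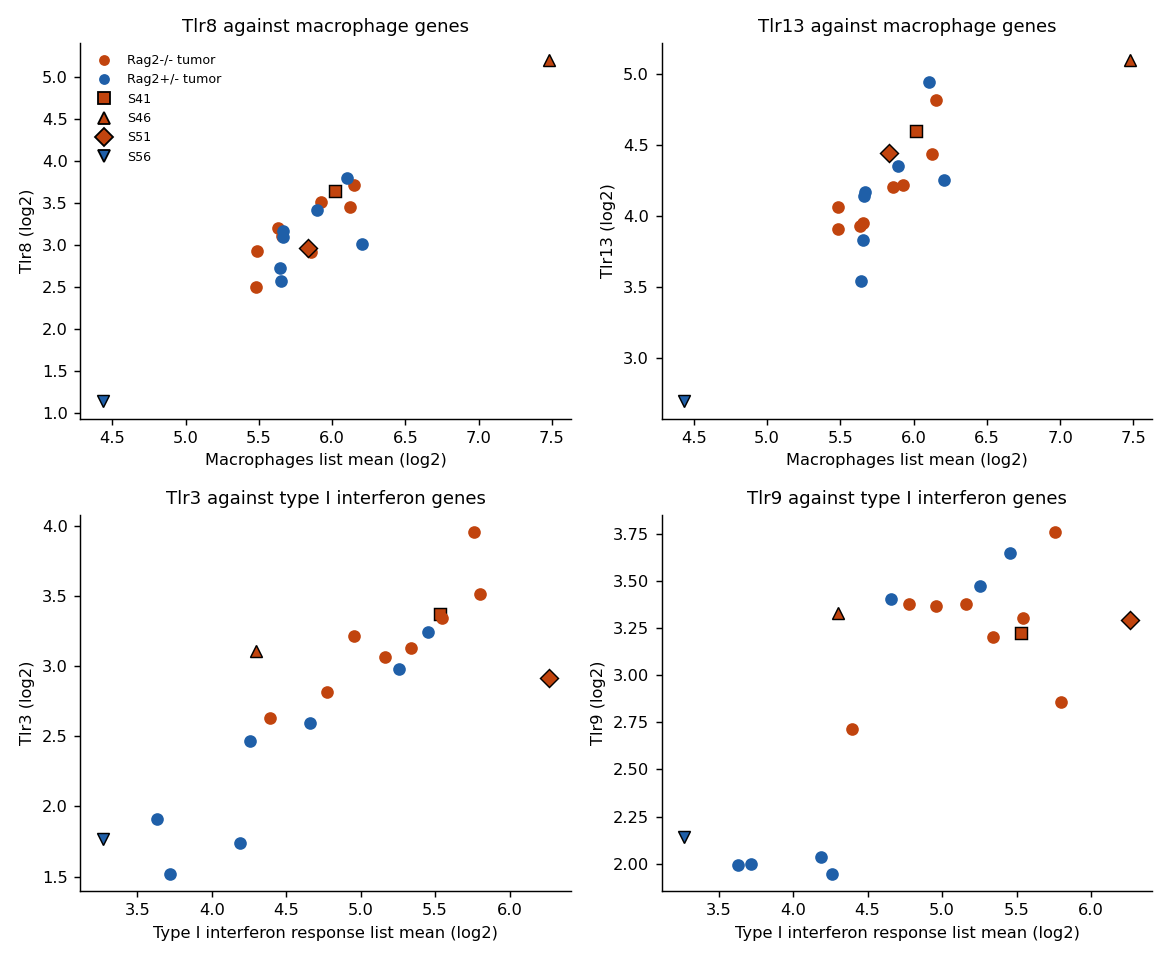
Log2 values of *Tlr8* and *Tlr13* against the macrophage list mean and of *Tlr3* and *Tlr9* against the type I interferon list mean (log2 on both axes), 1 point per tumor, Rag2-/- in orange and Rag2+/- in blue. *Tlr8* and *Tlr13* rise with the macrophage mean, with S46 and S56 at the ends, *Tlr3* rises with the interferon mean, and *Tlr9* steps from about 2.0 to 2.7 and above.

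The receptors were also set against each other. Over the 36 pairs of the 9 receptors without *Tlr9*, r was above 0 in 36 and ran from 0.08 for *Tlr3* with *Tlr6* to 0.92 for *Tlr7* with *Tlr13*, with a median of 0.70. In all, 29 pairs passed an adjusted p of 0.05 over the 36, and 9 did after leaving out, for each pair, the 2 tumors farthest from the median, so that the calls of many pairs rest on those tumors. Without them r was still above 0 in 35 of 36 pairs, and it rose in some, as for *Tlr3* with *Tlr13* from 0.49 to 0.64. For that pair S54 and S59 were left out, while S46 and S56, the ends of *Tlr13*, stayed in. Its r was 0.02 within Rag2-/- tumors, 0.57 within Rag2+/- tumors and 0.31 in the 15 tumors. Some pairs were below 0 within Rag2-/- tumors, as *Tlr2* with *Tlr3* at −0.27, against 0.58 within Rag2+/- tumors. The X-linked receptors gave the 3 highest values, *Tlr7* with *Tlr13* at 0.92, *Tlr7* with *Tlr8* at 0.91 and *Tlr8* with *Tlr13* at 0.91 (rho 0.77, 0.82 and 0.82, each with an adjusted permutation p of 1.2e-04 for r), and these were 0.79, 0.79 and 0.82 without S46 and S56. *Tlr7* and *Tlr8* are neighbors on chromosome X (GRCm38, 167304929 to 167330558 and 167242696 to 167264329), and *Tlr13* lies apart at 106143204 to 106160493. *Tlr1* and *Tlr6*, whose reads may be shared, had r = 0.70. *Tlr3* had its lowest values with *Tlr6*, *Tlr5* at 0.22 and *Tlr4* at 0.26.

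**Figure D5:**
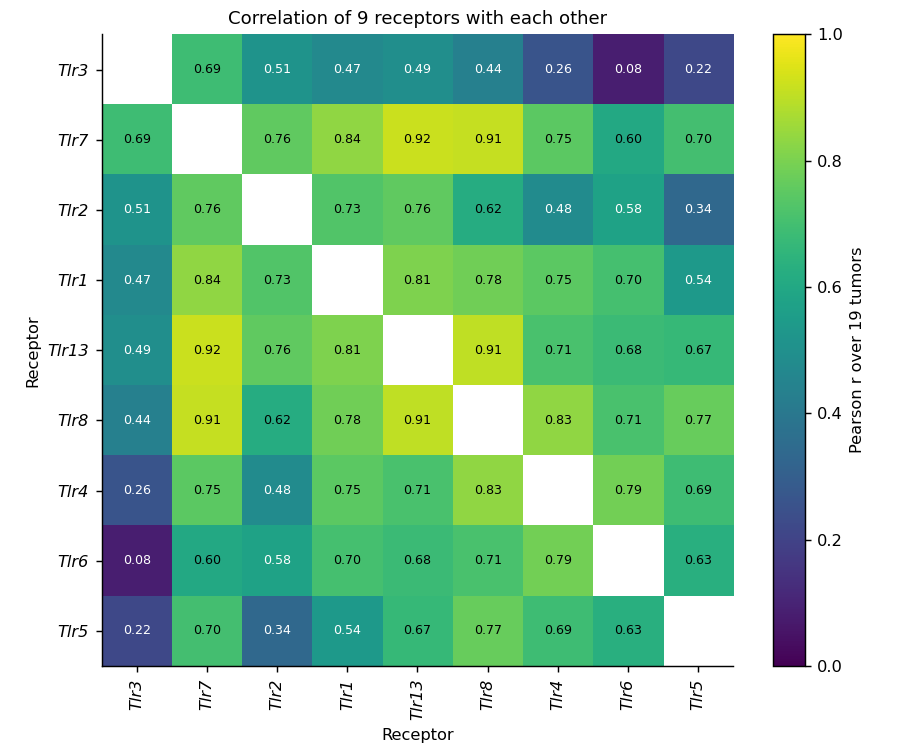
Pearson r over 19 tumors, as color and number, for each pair of the 9 receptors without *Tlr9* (both axes). The block of *Tlr7*, *Tlr8* and *Tlr13* holds the highest values, 0.91 to 0.92, and the row of *Tlr3* the lowest, down to 0.08.

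The genes whose log2 values across the 19 tumors were most like each receptor, among 12825 genes with a mean above 0, differed in kind. For *Tlr3* they were *Rigi* (r = 0.94), a cytosolic RNA sensor, *Eif2ak2* (0.94), the kinase activated by double-stranded RNA, and *Samd9l* (0.93). *Tlr9* was closest to *Sp100* (0.88), *Nectin4* (0.88) and *Abr* (0.87), values that span its separate sets of tumors. Genes of leukocytes led for most others. *Tlr8* was closest to the cytokine receptor genes *Il6ra* (0.97) and *Il10rb* (0.94) and to *Nckap1l* (0.94), *Tlr7* to the interferon receptor gene *Ifnar2* (0.95) and to *Vav1* (0.94), and *Tlr13* to *Vav1* (0.95), *Ifnar2* (0.93) and *Fyb* (0.92). *Tlr4* was close to *Nrros* (0.89) and the macrophage gene *Mertk* (0.89). For *Tlr6* the leading genes were *Syk* (0.92), *C4b* (0.90) and *Igsf6* (0.90), for *Tlr1* they were *Tifab* (0.89), *Pik3ap1* (0.89) and *Clec4a1* (0.88), and for *Tlr2* *Cds1* (0.88), *Ptprc* (0.88) and *Il10ra* (0.87). *Tlr5* had the loosest likeness, to *Cd22* (0.86), *Kit* (0.80) and *Anpep* (0.79).

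The rest of the pathway was read from lists, in which no gene passed an adjusted p of 0.05 (0 of 110 genes over 8 lists in limma). At an unadjusted p under 0.05, 6.54% of all genes were higher and 8.34% lower in Rag2-/- tumors, 14.9% in all, and the counts of 1 of 15, 2 of 13 and 1 of 9 genes given here lie near these shares. Among 15 coreceptors, chaperones and accessory proteins 1 had an unadjusted p under 0.05, *Rtp4*, an interferon-induced chaperone, at 6.09 ± 0.36 (SD, n = 11) in Rag2-/- and 5.41 ± 0.74 (SD, n = 8) in Rag2+/- tumors. Of 26 adaptors, kinases and transcription factors 3 were higher and 3 lower at that level. *Myd88*, the adaptor shared by all receptors but TLR3, had a difference of 0.52 (SE 0.19) and *Map3k7*, the kinase TAK1, −0.40 (SE 0.15), and the list median was 0.071, beside 0.073 over all genes. Of 13 inhibitors 2 were higher, *Dok3* at 0.51 (SE 0.20) and *Pik3ap1* at 0.60 (SE 0.24), with a list median of 0.058. Of 18 target genes 2 were higher and 2 lower, with a list median of 0.24. The lower ones were *Il12a* and *Il12b*, the subunits of interleukin 12, with differences of −1.86 (SE 0.75) and −0.81 (SE 0.34). Their means were near or below 0.5 on the log2 scale in both groups. The higher ones were *Il1b*, by 0.76 (SE 0.33), and *Ifnb1*, by 0.94 (SE 0.44). *Ifnb1* was above the floor in 6 of 11 Rag2-/- and 2 of 8 Rag2+/- tumors. Of 9 endogenous ligands of TLR2 and TLR4 *Vcan*, a matrix proteoglycan, was higher at an unadjusted p under 0.05, by 0.79 (SE 0.29), and *S100a9*, an alarmin of neutrophils, differed by 0.996 (SE 0.51). The family members *Tlr11* and *Tlr12* differed by −0.02 (SE 0.35) and −0.70 (SE 0.33).

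The lists of other sensors and of interferon genes had the larger medians. Of 13 other innate sensors 5 had an unadjusted p under 0.05, all higher in Rag2-/- tumors (6.54% of all genes), with a list median of 0.51. *Dhx58*, a helicase of the RIG-I family, was at 4.75 ± 0.40 (SD, n = 11) in Rag2-/- and 3.70 ± 0.83 (SD, n = 8) in Rag2+/- tumors, and *Rigi* at 4.99 ± 0.32 (SD, n = 11) and 4.14 ± 0.83 (SD, n = 8). Of the 14 type I interferon genes 13 had an unadjusted p under 0.05, all higher in Rag2-/- tumors, and the list median was 0.98. *Oasl2* differed by 0.89 (SE 0.25, adjusted p = 0.314 in limma) and *Ifit3* by 1.14 (SE 0.33, adjusted p = 0.327 in limma).

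Promoter sequence from RefSeq (GRCm38.p6, 250 bases before to 50 after each annotated start) was at hand for 8 of the receptors, in 10 windows. The interferon regulatory factor core AANNGAAA, searched on both strands, was in 23.9% of all 32851 promoter windows and in windows of 4 receptors, *Tlr1*, *Tlr2*, *Tlr3* and *Tlr6*. The motif GAGGAAGT of PU.1, a transcription factor of myeloid cells, was in 3.2% of the windows and at *Tlr1* and *Tlr9*. The 72 bases just upstream of the start are shown for *Tlr3* and *Tlr9*, the receptors with the lowest p between the genotypes. They lie at *Tlr3* (chr8:45410381-45410452, minus strand, inside the first intron of longer annotated transcripts) and *Tlr9* (chr9:106222526-106222597, plus strand), with capitals at the match of *Tlr3* to the core on the other strand, while the *Tlr9* stretch holds no match. A match describes letters only:
Tlr3: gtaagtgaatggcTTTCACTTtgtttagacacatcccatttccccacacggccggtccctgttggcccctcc
Tlr9: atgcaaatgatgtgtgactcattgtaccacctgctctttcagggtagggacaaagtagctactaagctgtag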

How the data were processed

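RNA sequencing of 19 tumors was used. In the study's methods the authors aligned reads to mouse B38 with the Omicsoft Sequence Aligner, quantified Ensembl R86 genes as FPKM, normalized by the upper quartile and deposited log2 values. The submitters' processing notes instead list Trimmomatic 0.36, STAR 5.5.4b, HTSeq and mm10. The floor shows that 0.1 was added, and 0 columns were unmatched. Because values are not counts, genotypes were compared with limma 3.58.1 (R 4.3.3, intensity trend, Benjamini-Hochberg) on genes above the floor in at least 8 tumors. In simulated data based on these 19 tumors and 18374 genes, it recovered 58% of genes changed by 1 and 84% of those changed by 2 on the log2 scale, and 3.40% of calls were false. The simulated noise was independent between genes, and the changed genes had a mean log2 value above 0. Real genes move together across tumors, so these shares may not carry over. Single receptors had exact permutation tests, which cannot give a p below 1.32e-05. Depth came from low values, taken as whole fragments (within 0.05) on GENCODE vM21 lengths for 75.7% to 89.1% of the values checked. Correlations used numpy 2.4.6 and Python 3.11.15. Neighbors in level were called apart when the mean difference within tumors exceeded its SD.

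The receptors and lists were chosen with earlier results of these data known. Named genes are the receptors, *Rag2*, *Xist*, the 2 genes with the lowest p of each pathway list, macrophage genes, genes of marker lists whose median differed by over 0.5, and the 3 genes most like each receptor, some of which are not reported here. The plasmacytoid dendritic cell and B cell genes, *Il1b* and *Ifnb1* were named after their values were seen. *Tasl* was not matched. The interferon covariate, the removal of S46 and S56 and the *Tlr9* sets were chosen after seeing the data. Alternatives also covered each tumor left out, the 15 tumors, pseudocounts, filters, scalings and covariates. Protein sequences were not used here.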

Additional observations from a re-analysis of the deposited data

Results flagged for a closer look

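The Rag2+/- tumor S56 lay below the other 7 Rag2+/- tumors by more than Dixon's critical value allows in *Tlr1* at 0.52, *Tlr4* at 1.91 and *Tlr8* at 1.13, and in the macrophage list mean at 4.43, all log2 values. These were 4 of 26 tests of a highest or lowest value over 13 measures, all in the Rag2+/- tumors, and chance passes it in about 1 of 20 groups. The Rag2-/- tumors were not tested in this way, although S46 was their highest for *Tlr8* at 5.21 and for the macrophage mean at 7.48. The measures are correlated across tumors, so they are not separate signs. S56 also had the highest skeletal muscle mean, 13.5, and the lowest type I interferon mean, 3.27, of the 19 tumors, and their part in these values was not tested. Without S56 the genotype difference fell from 0.63 to 0.39 for *Tlr1*, from 0.51 to 0.27 for *Tlr8* and from 0.74 to 0.45 for *Tlr7*. It also fell from 0.34 to 0.16 for *Tlr13* and from 0.33 to 0.21 for *Tlr2*. For *Tlr4* it fell from 0.25 to 0.10 and for *Tlr6* from 0.16 to 0.011. *Tlr5* moved away from 0, from −0.09 to −0.35, while *Tlr3* went from 0.91 to 0.84 and *Tlr9* from 0.68 to 0.61.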

How the results depend on the processing

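Under all 32 alternatives 0 of 10 receptors passed an adjusted p of 0.05 in limma, with 0 to 6 at an unadjusted p under 0.05, 0 with the interferon list as covariate (3.4% of all genes), 1 in the 15 tumors (19.6%) and 6 without S55 (19.7%). The share of all genes at that level ran from 3.4% to 27.4%, the latter without S51. Of 320 values for single receptors under an alternative, 311 kept their direction and their side of the threshold and 9 changed sign. *Tlr4* and *Tlr6* became −0.0514 and −0.31 in the 15 tumors, −0.0196 and −0.16 with the macrophage list as covariate, and −0.0404 and −0.14 without S46 and S56. *Tlr5* ran from −0.35 to 0.0626 with 1 tumor left out and was above 0 without S48 (0.0456), S52 (0.0274) or S55 (0.0626). The cause was not tested. Over its alternatives *Tlr3* had an adjusted p of 0.0887 to 0.985 and *Tlr9* of 0.121 to 0.985. *Tlr9* ran from 0.59 to 0.83 with 1 tumor left out (unadjusted p at most 0.0298), and *Tlr7* from 0.45 without S56 to 0.94 without S55. Without S46 *Tlr4* was 0.10 and *Tlr6* 0.0013. No paired analysis was possible because the labels give the tumors no replicate number, litter or batch, and the numbers assigned here in accession order only name tumors. In S41, at 5.23 M fragments (M for mega), low receptors such as *Tlr5* and *Tlr6* rest on few fragments. Over all tumors both had their fewest in S56, an estimated 20 and 33. *Tlr1*, *Tlr3*, *Tlr7*, *Tlr8* and *Tlr13* also had their fewest in S56.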

Other observations

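*Tlr12* was at 0.39 in the Rag2+/- tumor S52 and at 1.21 in S58, and at or below −0.59 in the other 17 tumors. In these 2 tumors *Tlr9* was at 3.40 and 3.48, while S55, with *Tlr9* at 3.65, had *Tlr12* at −1.32.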
